A study of Homo sapiens with 480 samples.

Results

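A set of 10 genes that make and assemble ribosomes, or feed cell growth beside that work, all widely listed as targets of the transcription factor MYC, was followed through the reprogramming of human fibroblasts. They were chosen by name, as NCL, NPM1, FBL, NOP56, NOP58, NOP16, RRS1, BOP1, POLR1B and ODC1, and all 10 were found among the 27021 genes of the expression tables. The cells came from BJ, an established line of human neonatal fibroblasts, and were sequenced singly, 96 to a group. Untreated BJ cells (BJ) were set beside cells 2 days (D2) and 8 days (D8) after the induction of OCT4, SOX2, KLF4 and MYC from viruses, and beside cells of day 16 that carried the surface antigen TRA-1-60 (TRA+) or lacked it (TRA-), as separated by sorting. Of 480 cells, 460 were kept, with at least 2000 genes at a value of 1 or more and ACTB or GAPDH present: 92 BJ, 96 D2, 92 D8, 95 TRA+ and 85 TRA- cells. The labels name no separate cultures or infections, so each group was treated as 1 culture, the cells are not replicates, and no test, p-value or standard error is given for any difference between groups. All 6 fibroblast markers taken (such as COL1A1, VIM and FN1) averaged 1 or more in BJ cells and 0 of 6 pluripotency markers did. An SD below is the spread over the cells of a group.

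Ribosomes are built in the nucleolus, where RNA polymerase I transcribes the long precursor of the ribosomal RNAs. Small nucleolar ribonucleoproteins modify that precursor, and assembly factors cut and fold it while ribosomal proteins are added. MYC binds DNA as a pair with MAX, preferring the E-box CACGTG, and is known to raise genes at each of these steps and ODC1, whose enzyme starts polyamine synthesis. Forced MYC expression is one of the classical ways to raise the efficiency of reprogramming. The tables give 1 MYC value per cell, in which RNA from the virus and from the cell's own gene cannot be told apart.

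Short stretches of sequence show MYC-type motifs near start sites of members whose levels follow below. A promoter (250 bases before to 50 after a start site) was given by RefSeq for 7 of the 10 genes, on the build GRCh38.p14; NOP58, RRS1 and BOP1 had none in the table used. The motifs searched on both strands were the E-box CACGTG, which reads the same on either strand, and the variant CACGCG. Counted by gene, since some genes have several promoters, the E-box was in 2 of the 7 members, FBL and ODC1, against 8.77% of all 27305 genes with a promoter. The variant was in 3 members, FBL, NPM1 and ODC1, against 13.5% of those genes. Over all 35116 promoters the shares were 7.26% for the E-box and 11.4% for the variant. The E-box of FBL begins at base 7 of its transcript and a second one of ODC1 at base 6 of a transcript, and neither is printed. Below, the motif is in capitals and the strand is that of the gene. The E-box of ODC1 shown is 29 bases before an alternative start, and past the other ODC1 start, which lies upstream. The variant of NPM1 is 77 bases before a start. That of FBL, read there on the other strand as CGCGTG, is 89 bases before its start.
ODC1 (chr2:10448013-10448078, minus strand): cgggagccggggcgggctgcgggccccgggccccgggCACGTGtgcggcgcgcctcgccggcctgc
NPM1 (chr5:171387760-171387789, plus strand): agggcttcggagCACGCGcgcggaggcggg
FBL (chr19:39846426-39846505, minus strand): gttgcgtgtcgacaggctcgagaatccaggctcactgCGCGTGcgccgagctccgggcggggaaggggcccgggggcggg
These are matches of letters and no binding was measured. NCL, NOP56, NOP16 and POLR1B held neither motif in the windows searched. Among the wider lists described further on, the E-box was in 13 of 30 genes of the small subunit processome, 13 of 34 of large subunit assembly, 4 of 62 ribosomal protein genes and 0 of 10 genes of the RNA polymerase I machinery. It was also in 2 of 8 housekeeping and 2 of 7 mitotic genes, shares of 25% and 28.6%, and 28.6% is also that of the members. The variant was in 6 of 30, 13 of 34, 14 of 62 and 6 of 10 genes of those first 4 lists.

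Levels below are FPKM (fragments per kilobase of gene, scaled to library size) rescaled to a total of 1000000 in each cell, so they can be compared between genes. The sources used here do not say if the 5 tables went through 1 joint normalization, which touches every level set across groups. MYC averaged 44.5 in BJ cells, 988 in D2, 375 in D8, 75.1 in TRA+ and 334 in TRA- cells. Its lowest, median and highest cells were at 0, 11.5 and 553 in BJ, 0.853, 676 and 5051 in D2, 0, 201 and 4570 in D8, 0, 14.5 and 1183 in TRA+ cells and 0, 297 and 1086 in TRA- cells. MYC was thus highest in D2 and lowest in BJ and in TRA+ cells, and the interquartile ranges over cells of TRA+ and TRA- cells did not overlap. MYCN, a relative of MYC, averaged 11.3 in TRA+ cells, where 30.5% of cells had it (95% Clopper-Pearson interval 21.5 to 40.8%, covering the counting of cells only), and at most 0.218 in the other groups.

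The 10 genes did not share 1 course, and their courses did not repeat that of MYC. Of them 6, NCL, FBL, NOP56, NOP58, RRS1 and POLR1B, had their highest mean in TRA+ cells, where MYC was low. NPM1 and ODC1 were highest in D2, NOP16 in D8 and BOP1 in TRA- cells, and none was highest in BJ. The share of all genes with their highest mean in TRA+ cells was not taken. Of 13719 genes, 30.3% were at least 2-fold higher in TRA+ than in D8 cells and 11.6% at least 2-fold lower. By the mean of log2(value + 1), NOP58 was lower in TRA+ than in D8 cells, with a difference of -0.64. For every member, each pair of groups that neighbour in the order of means had overlapping interquartile ranges over cells, so neighbours in that order were not set apart beyond the spread of cells. The summed level of the 10 genes had a median over cells of 2868 in BJ, 5212 in D2, 3949.8 in D8, 4904 in TRA+ and 2699.97 in TRA- cells. Most of that sum is NPM1.

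**Figure D1:**
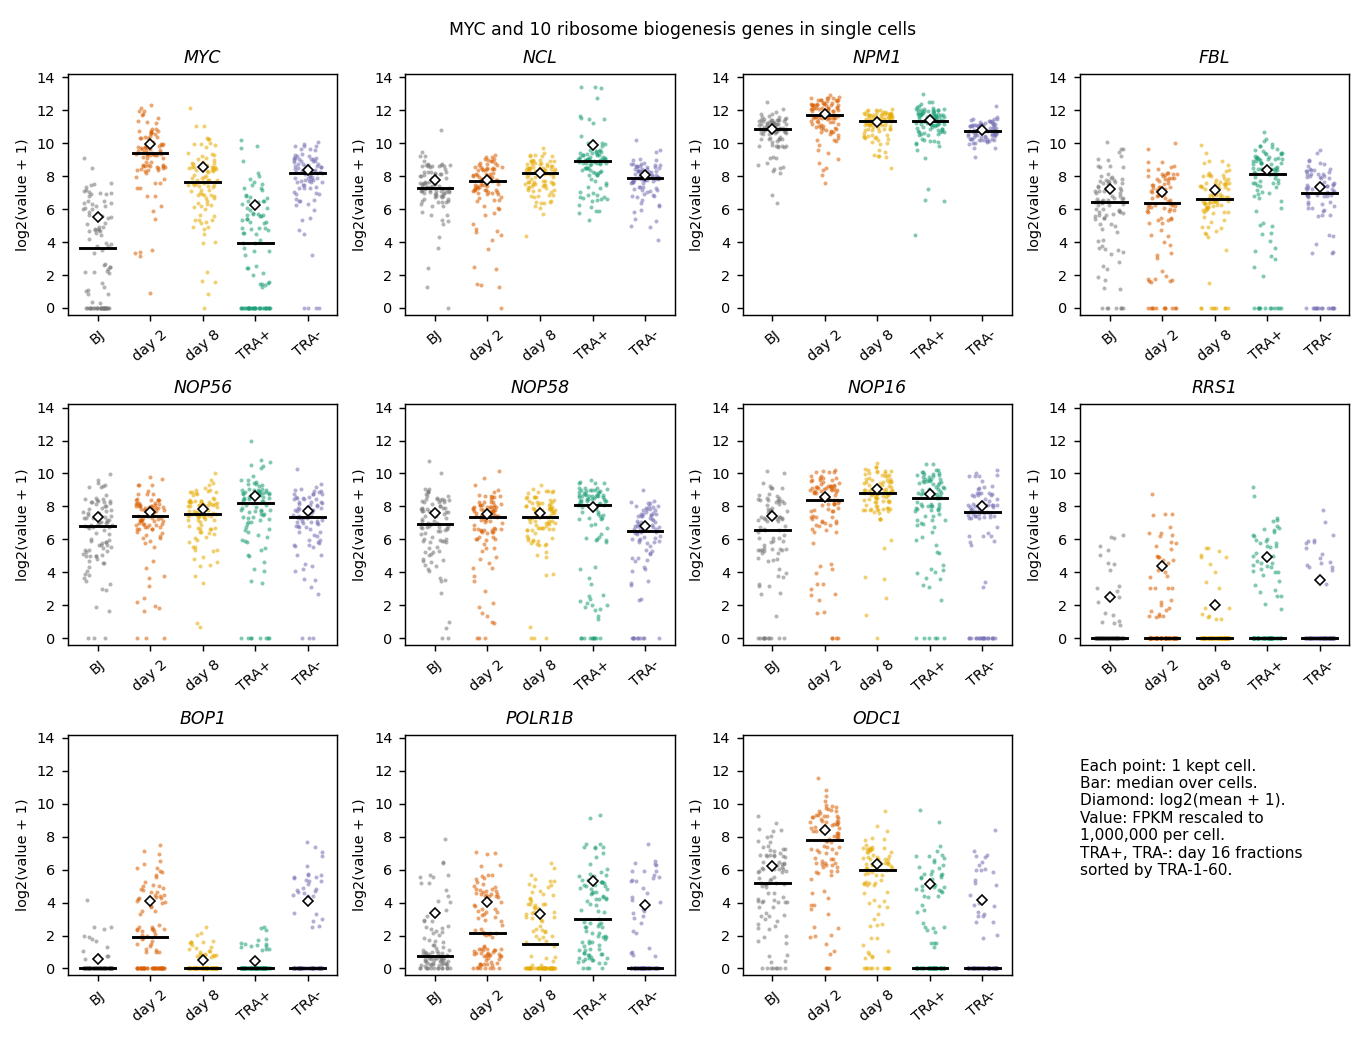
Level of MYC and of the 10 genes in each kept cell, as log2(value + 1) of FPKM rescaled to 1000000 per cell, by group; a point is a cell, a bar the median over cells and a diamond the log2 of the mean plus 1. NPM1 sits high in every group with medians between 1699 and 3308, while the medians of RRS1 are 0 in all 5 groups.

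NCL encodes nucleolin, an abundant nucleolar protein that binds the ribosomal RNA precursor. Its mean was 217 ± 216 (SD) in BJ, 219 ± 151 in D2, 293 ± 162 in D8, 958 ± 1978 in TRA+ and 264 ± 173 in TRA- cells. TRA+ cells had a lowest cell of 38.8, a median of 475 and a highest cell of 10937, so a few cells carried much of its mean. In cells with at least 4000 genes the NCL mean was 478 over 63 TRA+ cells and 254 over 82 TRA- cells.

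NPM1 encodes nucleophosmin, which organizes the nucleolus and escorts ribosomal proteins. Its lowest, median and highest cells were at 82.7, 1841 and 5764 in BJ, 194, 3308 and 7936 in D2, 367, 2624 and 4344 in D8, 20.7, 2648 and 8275 in TRA+ and 582, 1699 and 4992 in TRA- cells. It was detected in every kept cell. Its mean was 3529.7 in D2, the highest of the 5 groups, and 1806 in TRA- cells, the lowest. The gene annotation used here (GENCODE 29) names 45 pseudogenes after NPM1, 3 after NOP56 and 2 after NCL, and how reads shared with such copies were assigned is not stated, so these levels are uncertain in that respect.

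FBL, NOP56 and NOP58 encode fibrillarin and the 2 related core proteins that hold with it the box C/D particles, which methylate ribosomal RNA. FBL averaged 147 in BJ, 132 in D2, 139.7 in D8, 334 in TRA+ and 159.6 in TRA- cells, with highest cells between 784 and 1654. NOP56 averaged 166 in BJ, 199.6 in D2, 228 in D8, 388 in TRA+ and 211 in TRA- cells. By its means FBL stood near its BJ level through D8, while the mean of NOP56 was higher at each step. The mean log2(value + 1) of NOP56 was 0.54 higher in D2 than in BJ and 0.38 higher in D8 than in D2. NOP58 averaged 192 in BJ, 184 in D2, 194 in D8, 249.6 in TRA+ and 110.3 in TRA- cells. The 3 genes were each detected in between 82.4% and 97.8% of the cells of a group.

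NOP16, RRS1 and BOP1 act in assembly of the large ribosomal subunit, BOP1 together with PES1 and WDR12. NOP16 averaged 169 ± 213 (SD) in BJ, 381 ± 310 in D2, 524 ± 350 in D8, 424 ± 373 in TRA+ and 256 ± 267 in TRA- cells, with medians of 94.5, 337, 445, 360.1 and 206 in the same order of groups. NOP16 overlaps HIGD2A and ARL10 on the opposite strand, and whether counting used strand is not stated. HIGD2A itself averaged 256 in BJ, 236 in D2, 443 in D8, 175 in TRA+ and 349.9 in TRA- cells, and its correlation with NOP16 over cells lay between -0.17 and 0.30 in the 5 groups. The part of HIGD2A reads in the NOP16 level was not tested.

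RRS1 was found in 18.5% of BJ cells, 39.6% of D2 cells, 19.6% of D8 cells, 44.2% of TRA+ and 21.2% of TRA- cells. Its mean was 4.66 in BJ, 19.6 in D2, 3.09 in D8, 29.9 in TRA+ and 10.6 in TRA- cells, and its median was 0 in every group. POLR1B, a core subunit of RNA polymerase I, averaged 9.24 in BJ, 15.1 in D2, 8.88 in D8, 39.2 in TRA+ and 13.2 in TRA- cells, with medians of 0.721, 3.45, 1.83, 7.09 and 0 in the same order. Both genes were lowly expressed, and both were highest in TRA+ cells and second in D2.

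BOP1 was near 0 in 3 of the tables and present in the others. Its mean was 0.505 in BJ, 15.9 in D2, 0.408 in D8, 0.357 in TRA+ and 16.2 in TRA- cells. In D2 it was found in 60.4% of cells (95% Clopper-Pearson interval 49.9 to 70.3%) and in TRA- cells in 35.3% (25.2 to 46.4%), and in BJ, D8 and TRA+ cells in 10.9%, 15.2% and 15.8%. Its highest cell was at 176 in D2 and at 204 in TRA- cells, against 17.0 in BJ, 4.64 in D8 and 4.74 in TRA+ cells. The same 2 groups stood out for other genes: after the values were seen, 84 of 15120 genes that averaged 1 or more somewhere (0.556%) were found at least 2-fold higher in D2 and in TRA- cells than in each of the other 3 groups. BOP1 was the 1 member among them, and 10 of the 78 ribosomal protein genes were, among them RPL21 with means of 4.44 in BJ, 1225 in D2, 5.90 in D8, 2.49 in TRA+ and 992 in TRA- cells. Only 3 genes averaged at least 10 in both of those groups and at most 1 in the other 3, namely BOP1, OAS1 and SNORD141B, and the number for other pairs of groups lay between 0 and 5. Whether the tables were made alike was not tested, and leaving BOP1 out lowers by 1 each count below that includes it.

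ODC1 encodes ornithine decarboxylase, the rate-limiting enzyme of polyamine synthesis; it is not a ribosome assembly factor. Its mean was 75.1 ± 104 (SD) in BJ, 345 ± 435 in D2, 78.6 ± 102 in D8, 33.995 ± 97.3 in TRA+ and 16.9 ± 45.9 in TRA- cells. Lowest, median and highest cells were at 0, 35.1 and 607 in BJ, 0, 222 and 3055 in D2, 0, 62.1 and 744 in D8, 0, 0 and 781 in TRA+ and 0, 0 and 332 in TRA- cells. ODC1 was detected in 86.96% of BJ cells, 95.8% of D2 cells and 83.7% of D8 cells, and in 49.5% of TRA+ and 30.6% of TRA- cells. It was the member with the widest range among those detected in most cells of the early groups, its mean in D2 being 20.4 times that in TRA- cells.

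**Figure D2:**
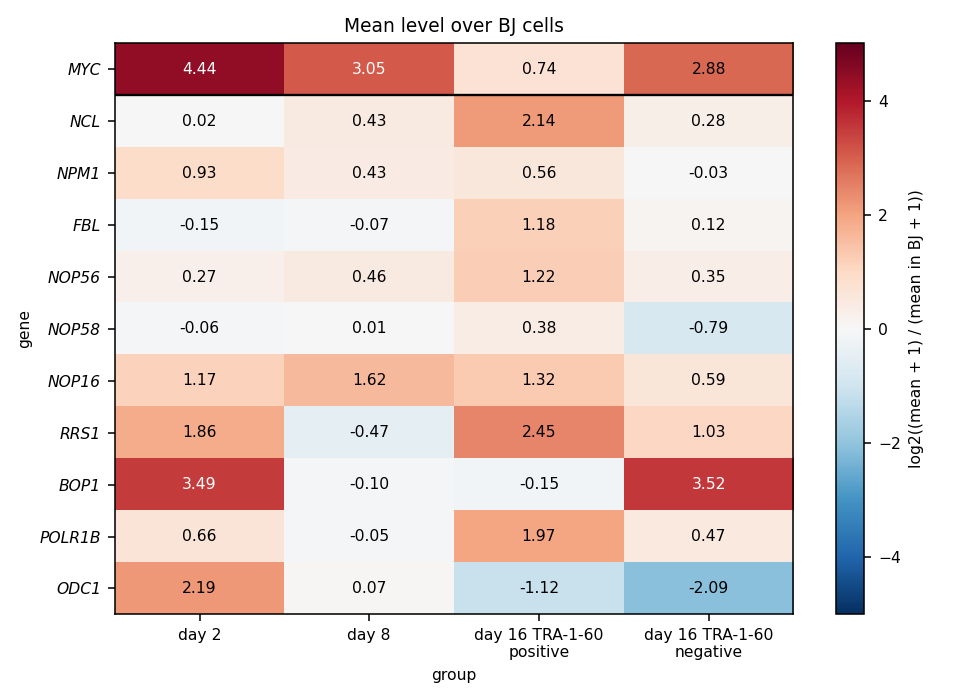
Mean of MYC and of each of the 10 genes in 4 groups over the mean in BJ cells, as log2((mean + 1)/(mean in BJ + 1)) of rescaled FPKM. MYC is highest in D2 with 4.44 and lowest in TRA+ cells with 0.74, while NCL, FBL, NOP56, NOP58, RRS1 and POLR1B have their highest value in TRA+ cells.

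D2 cells were compared with BJ cells to see what the first days of factor expression changed. A gene was called at least 2-fold different where log2((mean in A + 1)/(mean in B + 1)) was 1 or more in size and the mean of log2(value + 1) moved the same way, and it was measured where a mean was 1 or more. Of the 10 genes 4 were called higher in D2, NOP16 by 1.17, RRS1 by 1.86, BOP1 by 3.49 and ODC1 by 2.19 on the log2 scale, and 0 were called lower, against 12.2% of 12480 genes called higher and 12.1% called lower. The ODC1 mean in D2 was 4.60 times that in BJ cells and that of NOP16 was 2.25 times. NPM1, at 0.93, lay just under the call. The nucleolin gene and the box C/D genes stayed under the call, with log2 ratios of 0.02 for NCL, -0.15 for FBL, 0.27 for NOP56 and -0.06 for NOP58. The median log2 ratio of the 10 genes was 0.79, and of all measured genes -0.02. MYC itself stood at 4.44. Scaling each cell on housekeeping genes moved the median of all genes to 0.39 and that of the 10 to 1.23. Of the 10 genes 6 were then called higher, with NPM1 and POLR1B added. The share of all genes called on that scale was not taken. Of 11 measured housekeeping genes 1 was itself called higher in D2, EEF1A1 by 1.27, and 2 lower, ACTB by -1.02 and GUSB by -1.78. HBA2, a globin gene taken as a mark of blood cells, was found in 63.5% of D2 cells, 9.78% of D8 cells and 0 cells of the other groups, and PTPRC in 2.08% of D2 cells. The summed level of these 2 markers had a lowest, median and highest cell of 0, 48.2 and 7236 in D2, against at most 0.592 in BJ. Their part in the D2 values was not tested.

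Other genes of the same pathway were taken in 4 lists. Their shares called higher in D2 were 0%, 0%, 13.9% and 5%, in the order below, against 12.2% of all 12480 genes. Those called lower were 7.69%, 0%, 0% and 0%, against 12.1%. In the RNA polymerase I machinery 0 of 13 measured genes were called higher and 1 lower, UBTF with a log2 ratio of -1.02, where UBTF encodes a factor that opens ribosomal DNA for transcription. UBTF lost its call on housekeeping scaling, at -0.76, from deposited FPKM, at -0.91, and in cells with at least 4000 genes, at -0.87, and the first of these gave 3 genes higher and 0 lower. TAF1A with 1.28 and TAF1D with -1.29 passed 2-fold by their means but had the opposite sign by mean log2 values. Of 19 genes for snoRNPs and ribosomal RNA modification 0 were called, with RUVBL1 at 0.83 and NSUN5 at -0.85. NSUN5 stood at 0.25 by mean log2 values, so its sign differed between measures. Of 36 genes of the small subunit processome 5 were called higher and 0 lower, among them UTP20 with 2.11 and WDR3 with 1.42, both scaffold proteins of that complex, although in cells with at least 4000 genes they stood at 0.54 and 0.51 and were not called. Of 40 genes of large subunit assembly 2 were called higher, DDX31 with 1.28 and NMD3, an export adaptor of the large subunit, with 1.27, and 0 lower, DDX31 being at 0.63 by mean log2 values. BRIX1 in that list stood at -2.36 by its means but at 0.56 by mean log2 values, and at 0.76 in cells with at least 4000 genes, so its sign differed between measures. The list medians were 0.08, 0.45, 0.33 and 0.33 for these 4 lists, against -0.02 for all genes. On the housekeeping scale, where the median of all genes is 0.39, they were 0.58, 0.95, 0.71 and 0.73. The snoRNP, small and large subunit lists then had 8, 12 and 11 genes called higher. The share of all genes called on that scale was not taken.

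The polyamine pathway around ODC1 and the lists after it stand beside all 12480 genes, 12.2% called higher in D2 and 12.1% lower. Of 13 measured polyamine genes 0 were called lower and 1 higher, SAT1, which acetylates polyamines for breakdown, with a log2 ratio of 1.68. The list median was -0.02. With housekeeping scaling 4 were higher, and 2 each by mean log2 values and from deposited FPKM. Shares of all genes called under such alternatives were not taken. Of 18 other genes listed as MYC targets 1 was called higher, PPAT of purine synthesis with 1.02, and 2 lower, SHMT2 of one-carbon metabolism with -1.21 and NPM3, a relative of NPM1, with -1.36. From deposited FPKM 9 of these targets were higher, and 4 on housekeeping scaling, while in cells with at least 4000 genes PPAT at 0.83 and SHMT2 at -0.48 were not called. Of 78 ribosomal protein genes 15 were called higher and 1 lower, RPL28 with -1.08 (-0.65 and not called on housekeeping scaling), and the list median was 0.20. The highest of them, RPL21 with 7.81 and RPL9 with 6.40, are also among the 10 that stood out in D2 and in TRA- cells. Of 10 mitotic and proliferation genes 0 were called higher and 3 lower, among them MKI67 with -1.36 and TOP2A with -1.04. By mean log2 values 6 of them were lower, and on housekeeping scaling 1, with TOP2A at -0.36. In the family around MYC, 2 of 9 measured genes were called higher, MYC and MGA, and 1 lower, MXD3, but by mean log2 values MGA at 0.33 and MXD3 at -0.52 were not called.

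Of the 4 genes called higher in D2, ODC1, RRS1 and BOP1 were called lower in D8 than in D2, and NOP16 was not. In D8, 3 of the 10 genes were called lower than in D2, RRS1 by -2.33, BOP1 by -3.58 and ODC1 by -2.12 on the log2 scale, and 0 were called higher, against 12.5% of 12577 genes called lower and 13% called higher. ODC1 averaged 78.6 in D8 and 345 in D2. NPM1 stood at -0.51 and NOP16 at 0.46. MYC was called lower, by -1.39. The median of the 10 was -0.21, against 0.06 for all genes, by mean log2 values 0.01 against 0.16, and with median-of-ratios size factors -0.54 against -0.29. On the deposited FPKM scale (all genes at a median of -0.12) 5 were called lower, with NPM1 at -1.03 and POLR1B at -3.76 added. POLR1B stood at -0.71 on rescaled values. The highest FPKM total of a D2 cell was 74940500, against a median of 798970, and that of a D8 cell was 1739170. The part of such cells in the means of deposited FPKM was not tested. Of the wider lists, 3 of 36 small subunit genes were called lower and 0 of 40 large subunit genes were called either way. Those counts turned on the measure. Of the large subunit genes 7 were lower with median-of-ratios factors, 6 from deposited FPKM and 3 on housekeeping scaling, whereas 4 were higher by mean log2 values. By that last measure 0 small subunit genes were lower and 1 was higher.

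At day 16 the means of 9 of the 10 genes were higher in TRA+ than in TRA- cells, while that of MYC was lower. Of the 10 genes 5 were called higher, NCL by 1.86, FBL by 1.06, NOP58 by 1.17, RRS1 by 1.42 and POLR1B by 1.50 on the log2 scale, and 1 lower, BOP1 by -3.67, against 24.8% of 14060 genes called higher and 21.4% called lower. FBL averaged 334 ± 318 (SD, 95 cells) in TRA+ and 159.6 ± 155 (SD, 85 cells) in TRA- cells. NOP58 averaged 249.6 ± 213 in TRA+ and 110.3 ± 98.2 in TRA- cells. POLR1B was found in 77.9% of TRA+ and 34.1% of TRA- cells. ODC1, at 0.97, NOP56, at 0.88, NOP16, at 0.73, and NPM1, at 0.59, lay under the call. The median of the 10 was 1.01, against 0.06 for all genes. Housekeeping scaling and median-of-ratios size factors moved the median of all genes to 0.46 and 0.62 and that of the 10 to 1.51 and 1.47. Under each, 9 of the 10 were then called higher. The share of all genes called under those scalings was not taken, nor that of all genes with a merely higher mean. MYC was called lower in TRA+ cells, by -2.14, but stood at -0.80 and -0.63 under those scalings and at -0.17 from FPKM as deposited, so its direction held and its call did not.

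Genes of proliferation and of pluripotency differed between TRA+ and TRA- cells. All 10 mitotic and proliferation genes were called higher in TRA+ cells, CDK1 by 4.55 and TOP2A by 5.16, and their summed level per cell had a lowest, median and highest value of 10.6, 2017 and 10288 in TRA+ and 0, 181 and 4957 in TRA- cells. All 6 pluripotency markers averaged 1 or more in TRA+ cells and 1 of 6, GDF3, did in TRA- cells, and the summed level of 6 fibroblast markers had a median of 1156 in TRA+ and 10537 in TRA- cells. Their part in the higher levels of the ribosome biogenesis genes was not tested. TRA+ cells also numbered 32 with fewer than 4000 genes, against 3 TRA- cells. Without such cells, 4 of the 10 genes were called higher and 1 lower, with NCL under the call at 0.91. FBL was under it at 0.98 without the 5% of cells with most genes and at 0.96 by mean log2 values.

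In TRA+ against TRA- cells the wider lists held few genes called lower by their means, and more by mean log2 values. Called higher and lower were 2 and 0 of 13 genes of the RNA polymerase I machinery, 5 and 0 of 19 snoRNP and modification genes, 7 and 2 of 36 small subunit genes and 12 and 0 of 40 large subunit genes. The shares called higher ran upward from 15.4%, against 24.8% of all genes, and those called lower were at most 5.56%, against 21.4%. By mean log2 values the counts higher and lower were 0 and 0, 2 and 3, 4 and 3, and 7 and 4 in the same order of lists. BRIX1, at 2.18, and UTP20, at 1.96, were among those called higher, and BRIX1 averaged 457 in TRA+ and 99.96 in TRA- cells. The list medians were 0.29, 0.58, 0.38 and 0.54, against 0.06 for all genes, and 0.03, 0.11, 0.16 and 0.15 by mean log2 values, against -0.12. Of the polyamine genes 4 of 13 were called higher, among them ARG2 with 1.65, and 1 lower. Of the other MYC targets 5 of 19 were called higher, with PPAT at 1.23 and C1QBP, a mitochondrial protein, at 1.11, and 1 lower, SHMT2 at -1.28. The balance of both lists turned by mean log2 values, with 3 polyamine genes higher and 5 lower, and 4 other MYC targets higher and 6 lower. Ribosomal protein genes had 0 of 78 called higher, 15 lower and a median of -0.29. Relative to all genes that median stayed lower on the housekeeping scale, at 0.10 against 0.46, and with median-of-ratios factors, at 0.17 against 0.62, though its own sign turned positive under both. The counts turned too, with 6 ribosomal protein genes higher and 12 lower on the housekeeping scale and 13 higher and 12 lower with median-of-ratios factors.

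**Figure D3:**
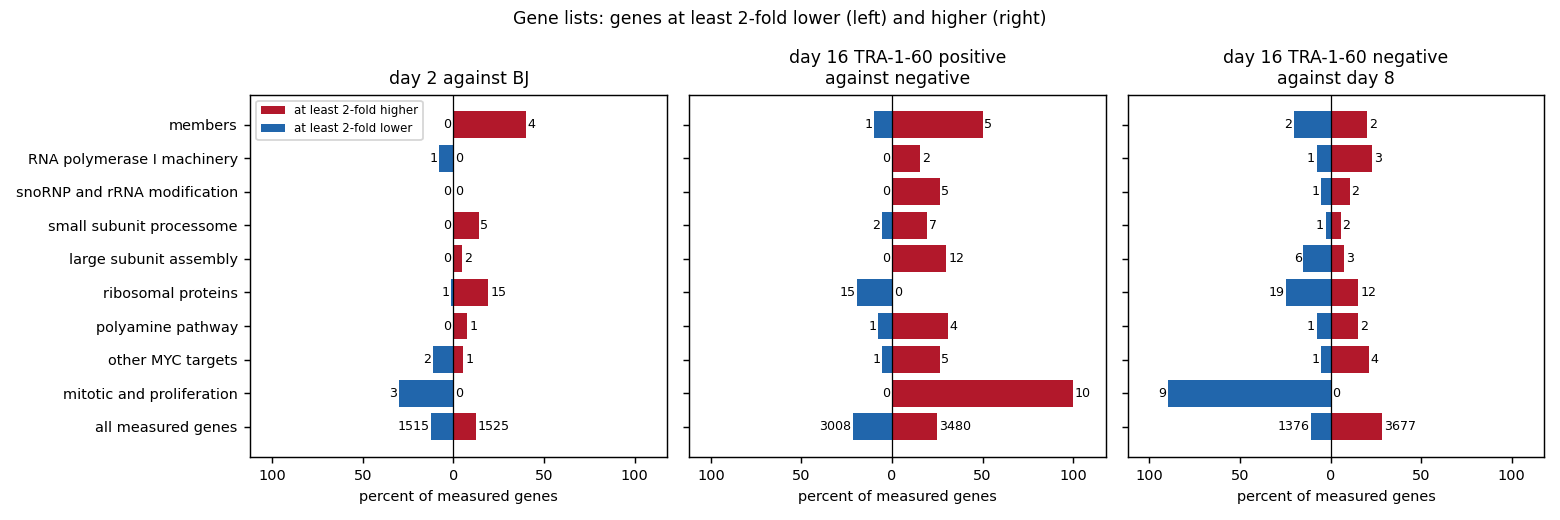
Share of measured genes of each list called at least 2-fold lower (left of 0) and higher (right of 0), in percent, in 3 comparisons; the numbers beside the bars are counts of genes. In TRA+ against TRA- cells all 10 mitotic genes lie on the higher side, as do 5 of the 10 members and 12 of 40 large subunit assembly genes, while 3480 of all 14060 genes do.

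TRA+ and TRA- cells were each set against D8, and since both comparisons share the D8 cells their values stand side by side. In TRA+ cells NCL by 1.70, FBL by 1.25, RRS1 by 2.92 and POLR1B by 2.02 on the log2 scale were called higher than in D8, 4 of 9 measured, and ODC1 by -1.19 was called lower, against 30.3% and 11.6% of 13719 genes. In TRA- cells RRS1 by 1.50 and BOP1 by 3.61 were called higher, and NOP16 by -1.03 and ODC1 by -2.15 lower, 2 and 2 of 10, against 28.4% and 10.6% of 12965 genes. RRS1 was found in 18 of 92 D8 and 18 of 85 TRA- cells, and its difference by mean log2 values was 0.46. In cells with at least 4000 genes NCL stood at 0.68 in TRA+ against D8 cells and was not called. The medians of the 10 genes were 0.76 in TRA+ and -0.13 in TRA- cells, against 0.49 for all genes in each. NOP58 had log2 ratios of 0.36 in TRA+ and -0.81 in TRA- cells, and NPM1 0.13 and -0.46. By differences of mean log2 values the median of the 10 in TRA+ cells was 0.05, with all genes at -0.09. MYC stood at -2.31 in TRA+ and -0.17 in TRA- cells, where it turned to 0.29 by mean log2 values and 0.56 by the ratio of medians. Of 10 mitotic genes 9 were called lower in TRA- cells than in D8, and 2 of 10 higher in TRA+ cells.

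Within the 96 D2 cells the level of MYC ran from 0.853 to 5051, and its correlation with each gene was taken over cells on the log2(value + 1) scale. NPM1 and NOP16 had the highest Pearson r with MYC, 0.568 and 0.567, and then came NOP58 with 0.469, FBL with 0.438, NCL with 0.387, ODC1 with 0.360 and NOP56 with 0.232. RRS1 with 0.112, POLR1B with 0.032 and BOP1 with -0.115 were found in 38, 64 and 58 of the cells, and in such sparse values a weak correlation is no finding. Of the 10 genes 7 were at 0.2 or more, against 48.7% of 8190 genes detected in at least 25% of D2 cells. The median r of the 10 was 0.373 and that of all those genes 0.196. A higher r than that of NPM1 or an equal one was found in 0.195% of the genes, and in 0.208% for NOP16. Cells in such a plot share their library preparation, and MYC correlated with the number of genes detected in a cell, at an r of 0.569.

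With the number of detected genes held fixed, the partial r was 0.343 for NOP16, 0.301 for NOP58, 0.294 for NPM1, 0.269 for ODC1, 0.192 for FBL, 0.065 for NCL, 0.051 for POLR1B, 0.012 for RRS1, -0.092 for NOP56 and -0.250 for BOP1. Of the 10 genes 4 were at 0.2 or more, against 6.59% of all genes, and the median was 0.128, against 0.018 over all genes. In the 81 D2 cells with at least 4000 genes, r was 0.439 for NPM1, 0.432 for NOP16, 0.421 for ODC1, 0.412 for NOP58, 0.305 for FBL, 0.183 for NCL and 0.019 for NOP56. The 4 genes NPM1, NOP16, NOP58 and ODC1 thus kept an r of 0.2 or more in each of these views, and FBL, NCL and NOP56 did not. ODC1 had a Spearman rho of 0.476, higher than its Pearson r, and the highest rho of the 10.

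**Figure D4:**
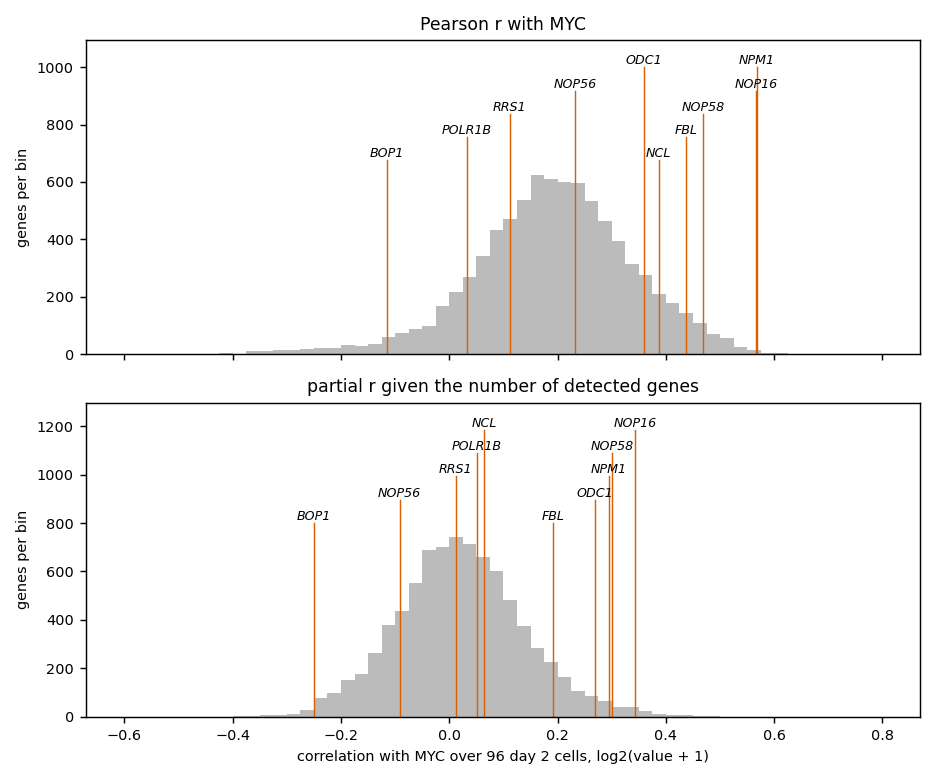
Correlation with MYC over 96 D2 cells for 8190 genes (grey bars, genes per bin) and the 10 members (lines), as Pearson r (top) and as partial r given the number of detected genes (bottom). NPM1 at 0.568 and NOP16 at 0.567 lie at the right end of the upper panel, and NOP16 at 0.343, NOP58 at 0.301 and NPM1 at 0.294 at that of the lower one.

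**Figure D5:**
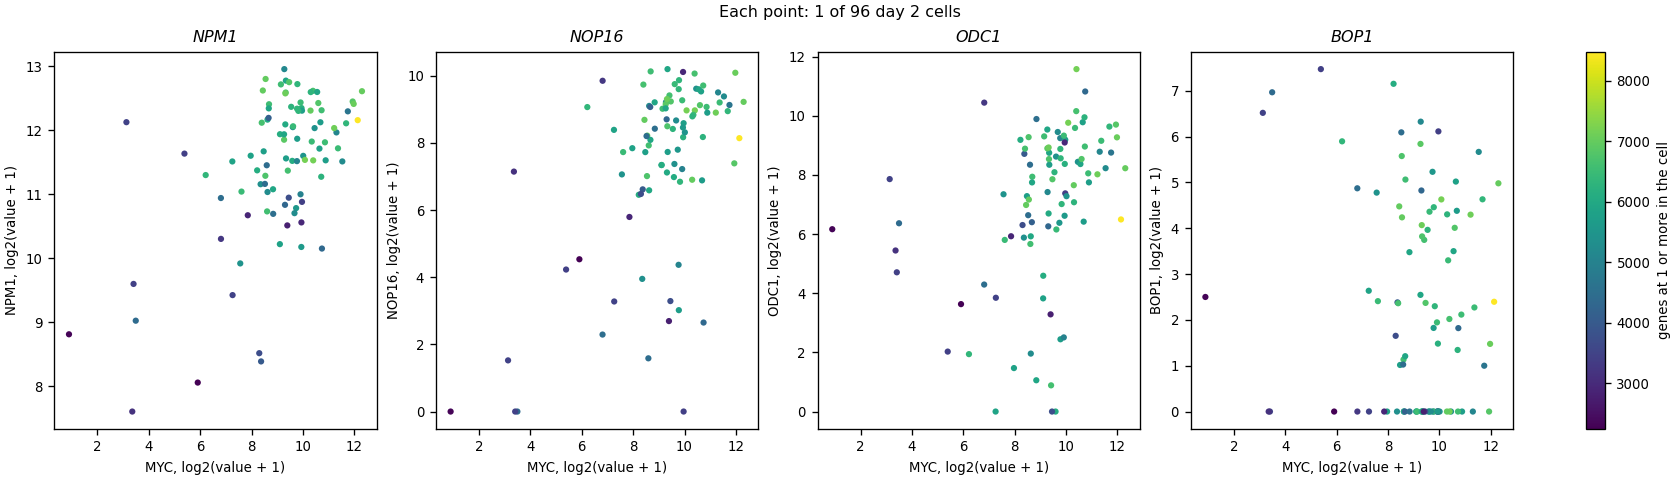
MYC against NPM1, NOP16, ODC1 and BOP1 in 96 D2 cells, on log2(value + 1) axes of rescaled FPKM; a point is a cell, coloured by its number of genes at 1 or more. MYC correlates with the number of detected genes at an r of 0.569. The r of MYC with the gene shown is 0.568, 0.567, 0.360 and -0.115 in the 4 panels.

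The correlation in D2 was wider than these genes. The median r with MYC was 0.456 over 77 ribosomal protein genes, 75 of them at 0.2 or more, and the partial r had a median of 0.254, with 58 at 0.2 or more. The medians for the other lists were 0.403 for other MYC targets, 0.314 for the polyamine pathway, 0.307 for large subunit assembly, 0.303 for snoRNPs and modification, 0.261 for the RNA polymerase I machinery and 0.255 for the small subunit processome, each above the 0.196 of all genes. Housekeeping genes had 0.353 and mitotic genes 0.001. The partial medians were 0.173 for other MYC targets, 0.099 for the polyamine pathway and for housekeeping genes alike, and between 0.028 and 0.077 for the other ribosome biogenesis lists. Within lists the highest r belonged to OAZ1, an inhibitor of ornithine decarboxylase, with 0.587, RPL7A with 0.603, EIF6 of large subunit release with 0.527 and HSPE1, a mitochondrial chaperone, with 0.525. The highest r of any gene, seen only afterwards, was that of KLF4, with 0.661 and a partial r of 0.494. KLF4 is 1 of the other introduced factors.

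In each of the other groups the median r of the 10 genes with MYC was lower. Their median r was 0.158 in BJ, 0.087 in D8, 0.144 in TRA+ and 0.072 in TRA- cells, and that of all genes was 0.105, 0.043, 0.133 and 0.027 in the same order. The highest were NOP58 in TRA+ cells with 0.328 and NOP56 in BJ with 0.326. The differences in r between groups were not tested. The mean log2 level of the 10 genes correlated with that of the mitotic genes at 0.554 in BJ, 0.377 in D2, 0.559 in D8, 0.589 in TRA+ and 0.029 in TRA- cells, where mitotic levels were low. Given the number of detected genes those values were 0.466, 0.244, 0.502, 0.078 and -0.093.

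The r between members over cells differed by group and by member, and in D2 the highest were among NCL, FBL, NOP56 and NOP58. Over the 45 pairs the median r was 0.174 in BJ, 0.286 in D2, 0.199 in D8, 0.157 in TRA+ and 0.072 in TRA- cells, where 7 pairs were at 0.2 or more, and r over pairs of other genes was not taken. FBL and NOP58, of the same particle, were the closest pair in D2 with 0.684 and in TRA+ cells with 0.568, but had 0.323 in BJ, 0.216 in D8 and 0.132 in TRA- cells. The closest pairs there were NPM1 and NOP56 in BJ with 0.434, NPM1 and NOP58 in D8 with 0.544 and FBL and NOP16 in TRA- cells with 0.335. In D2 NCL and NOP56 had 0.601 and NCL and NOP58 0.584. Given the number of detected genes, FBL and NOP58 had 0.593 in D2, where the median over pairs was 0.151, and 0.280 in TRA+ cells, below the 0.427 of FBL and NOP16.

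Outside the list, the genes most alike to the mean of the 10 were sought among 5950 genes detected in at least 25% of the cells of every group, by the mean over the 5 groups of the within-group Pearson r. They were CCT4 with 0.505, TIMM13 with 0.487, SNRPD1 with 0.486, DDX21 and CCT6A with 0.472 each, CNBP with 0.470, RSL1D1 with 0.469, SRSF7 with 0.464, MRTO4 with 0.460 and TCP1 with 0.459. CCT4, CCT6A and TCP1 encode subunits of the chaperonin that folds actin and tubulin, SNRPD1 and SRSF7 act in splicing, and DDX21, RSL1D1 and MRTO4 are nucleolar proteins. The r of CCT4 was 0.600 in BJ, 0.629 in D2, 0.365 in D8, 0.538 in TRA+ and 0.393 in TRA- cells. The r of DDX21 was 0.322 in BJ, 0.517 in D2, 0.662 in D8, 0.570 in TRA+ and 0.290 in TRA- cells. The lowest r of 8 of the 10 was in TRA- cells. The mean of the members also correlated with the number of detected genes. That r was 0.449 in BJ, 0.650 in D2, 0.337 in D8, 0.723 in TRA+ and 0.321 in TRA- cells. The ranking was not adjusted for that number, and the part of it in these likenesses was not tested.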

How the data were processed

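Per the labels' protocols, C1 chips from Fluidigm captured the cells and the Nextera XT kit turned their polyadenylated RNA into libraries. The deposited values are FPKM per gene, 1 table per group; per the submitters' processing notes STAR, Cuffnorm and the build hg19 were used, with versions not given in the sources used here. FPKM are not counts, so the depth per cell is unknown. Each cell was rescaled to 1000000, a gene counted as detected at 1 or more, and group effects used a pseudocount of 1, which understates the ratios of low genes. Median FPKM totals per cell lay between 647375 and 809963, and median detected genes between 5678 and 5915. The highest FPKM totals were 74940500 in D2 and 15501000 in TRA+ cells, and means of deposited FPKM were not corrected for this. The share of small RNA and mitochondrial genes reached 93.8% in 1 D2 cell. No doublet caller can work on 96 cells with FPKM alone. No column was left unused (0 columns).

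The 10 members, the lists and the fold rule were chosen with earlier results of these data known. Named by rule were all members, MYC and, of each list, up to 4 genes with the highest and lowest log2 ratio at day 2 or r with MYC; others are said to be chosen after their values were seen, as were RPL21, OAS1, SNORD141B and HIGD2A. Alternatives changed the scaling, pseudocount, summary, cell filters and correlation measure. Leaving out BOP1, and keeping cells with at most 20% small RNA and mitochondrial share, were added after seeing the data. Scripts (Python 3.11.15, pandas 2.3.3, numpy 2.4.6) were checked on simulated data. Promoters are RefSeq's and gene overlaps GENCODE 29's, both on GRCh38, used for names and motifs only.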

Additional observations from a re-analysis of the deposited data

How the results depend on the processing

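The counts of members called in D2 against BJ stayed within 1.5 times under every alternative run, and no called log2 ratio of a member or MYC reversed in any comparison. Shares of all genes called were not taken under the alternatives. Members called lower at D8 against D2 numbered 5 from FPKM as deposited. In TRA+ against TRA- cells 9 were called higher on housekeeping scaling, 9 with median-of-ratios factors and 3 by the ratio of medians, while 0 were lower by the ratio of medians and 0 without BOP1. In TRA+ against D8 cells, 2 were higher by differences of mean log2 values and 2 by the ratio of medians, and 0 were lower with median-of-ratios factors. In TRA- against D8 cells, 1 was higher by mean log2 values, 0 by the ratio of medians and 1 without BOP1, and 1 was lower without the 5% of cells with most genes. With MYC over D2 cells, the median r was 0.128 given detected genes, 0.152 given also the small RNA share and 0.149 with median-of-ratios factors, and 4 members were at 0.2 or more given detected genes. The r of NOP56 reversed to -0.092, -0.156 and -0.116 under the same 3 settings. MYC itself correlated with the number of detected genes over D2 cells, at 0.569. What the adjustments for gene number or size factor take out was not tested. Of the log2 ratios of single genes under alternatives 549 kept their side of the call and 56 did not, and of the values of r 100 stayed, 17 moved and 3 reversed. Counts of the wider lists moved by more than 1.5 times in many cases, and further such counts stand beside their results. In TRA+ against TRA- cells 4 and 14 small subunit and 7 and 22 large subunit genes were higher by mean log2 values and median-of-ratios factors, and 13 and 19 on housekeeping scaling, against 7 and 12, and 40 ribosomal protein genes were lower by mean log2 values, against 15. No paired analysis was possible because the numbers in the labels count cells within a group and no comparison has a test. Depth is unknown, so absence of RRS1, BOP1 or POLR1B from a cell may be a limit of detection.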
